A study of Aspergillus luchuensis with 6 samples.

Results

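Upstream start clusters are groups of transcription start sites that lie on the same strand as another, usually stronger, start cluster and a short way ahead of it. They were taken from CAGE data (cap analysis of gene expression, which reads the capped 5′ end of each RNA, so that a tag marks a start site to the base) of rice koji of Aspergillus luchuensis mut. kawachii, a mould used in brewing. Of 36260 start clusters in the deposited table, 35184 lay on scaffold 1 (DF126447.1) and scaffold 2 (DF126448.1), and 1461 of these were upstream clusters. A cluster joins neighbouring positions of a strand that are at most 20 bp apart and have at least 2 tags each, counted over the 6 libraries. Leading clusters, 1211 in number, were those with 100 or more pooled tags and the most tags of their strand, with leading peaks at least 2000 bp apart. An upstream cluster had 30 or more pooled tags, was not leading, and had its nearest same-strand leading peak at least 50 bp and under 2000 bp downstream. The clusters were thus chosen by position and by tag counts pooled over both strains, so that a cluster could reach a minimum mainly through the strain where it was high. All coordinates are those of the deposited table, for which the sources used here name no genome build.

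The libraries came from a control strain (ctrl4 in the labels, n = 3) and from a strain with a disrupted sirtuin D gene (sirD, n = 3), both as frozen rice koji without further treatment named in the labels. With 1 strain per group, every difference reported is one between these strains. Whether the 3 libraries of a strain were separate cultures is not said in the labels, and p-values therefore rest on a spread between libraries that may be technical. On the scaffolds a control library had 1419744 to 1556346 tags and a disruptant library 1566641 to 1634987. The level of the disrupted gene, which would check the labels, was not analysed here, because the rows carry no gene names.

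A gene in a filamentous fungus often has more than 1 start site, and starts further upstream give transcripts with a longer 5′ leader, which can carry short upstream open reading frames that affect translation. A start upstream of a main start may also belong to another transcript, such as the end part of the gene before it. Sirtuins are NAD-dependent deacylases, many of which remove acetyl groups from histones, and the sirtuin HstD, studied in Aspergillus oryzae, is known to affect secondary metabolism and development. No gene annotation in these coordinates was used, so an upstream cluster is described by its position relative to the leading peak and is not assigned to a gene.

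The upstream clusters lay at 687 of the leading clusters (56.7% of them), 309 of which had 1 and 378 had several, up to 9. Scaffold 1 held 914 and scaffold 2 held 547. The median distance from peak to peak was 753 bp, with quartiles of 356 and 1230 bp. Pooled tags ran from 30 to 15741 with a median of 78. The share of a cluster is given throughout as its tags divided by its tags plus those of its leading cluster. The median pooled share was 5.97%, with quartiles of 1.56% and 19.9%, so most upstream clusters were minor starts, while 364 took 20% or more. In 29 the upstream cluster held more pooled tags than the leading cluster to which it was assigned. Each of these 29 had another leading peak under 2000 bp upstream, which kept it from leading itself.

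**Figure D1:**
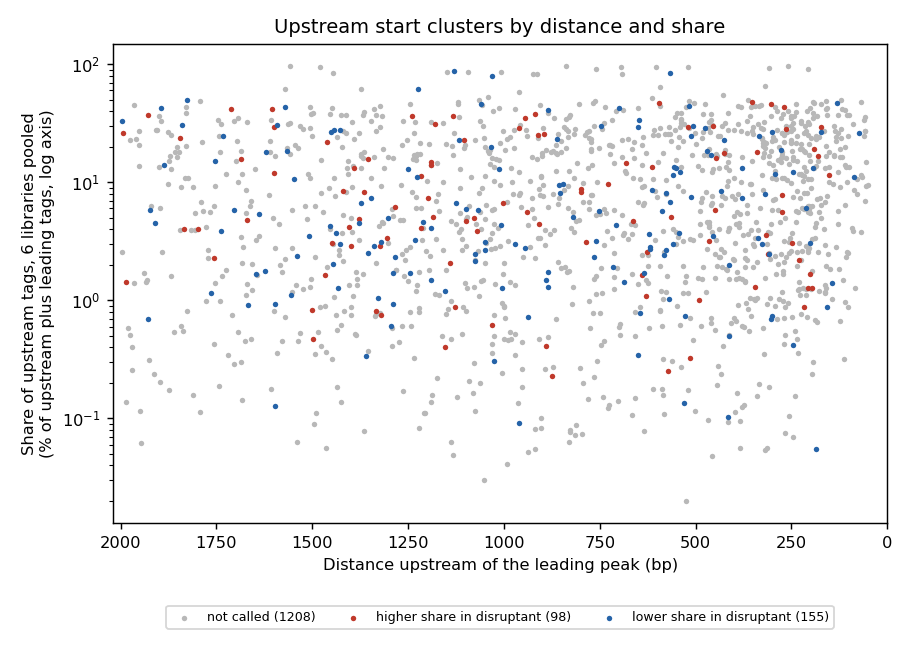
Each point is 1 of the 1461 upstream clusters, plotted by the distance of its peak from the leading peak (x axis, bp) and its share of tags pooled over 6 libraries (y axis, %, log axis). Red and blue mark the 98 and 155 clusters whose share was higher or lower in the disruptant, and no red point lies above a pooled share of 50%, where 4 of the 29 clusters are blue.

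The values at the limits of the choice were low. At the minimum of 30 pooled tags, the scaffold 1 plus-strand cluster at 13013 to 13028 had 10, 2 and 8 control tags and 4, 3 and 3 disruptant tags. The scaffold 1 minus-strand cluster at 60675 to 60714, left out with 29 tags, had 6, 2 and 5 in the control and 8, 3 and 5 in the disruptant. At the minimum distance, the scaffold 2 plus-strand cluster at 1669594 to 1669642 lay 50 bp from its leading peak with 31 tags. The 1 cluster left out for its distance lay at 39 bp, on scaffold 1 (minus strand) at 1648899 to 1649071, with 93 tags.

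In width the upstream clusters had values close to those of other clusters of like depth. Among those with 100 to under 300 pooled tags, the median width was 97.0 bp for 378 upstream clusters, 99.5 bp for 148 of their leading clusters and 98.5 bp for 626 non-leading clusters downstream of, or under 50 bp from, a leading peak. The strongest position held a median of 18.1%, 19.7% and 22.1% of the tags in these classes. The interquartile ranges of the widths overlapped (61.0 to 136 bp for the upstream clusters and 65.75 to 130 bp for the leading clusters), and the differences were not tested. An opposite-strand cluster of 30 or more tags peaked within 300 bp on the upstream side of 455 upstream clusters (31.1%), against 256 (9.83%) of the 2604 other non-leading clusters paired with a leading peak. The next same-strand leading peak on the far side was under 5000 bp away for 960 upstream clusters (65.7%).

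Upstream clusters held a small part of the tags on the scaffolds. Of the scaffold tags they took 5.35%, 5.05% and 4.96% in the control, against 4.66%, 4.78% and 4.80% in the disruptant. Of the tags of upstream clusters and their leading clusters together, the upstream clusters took 9.05%, 8.49% and 8.38% in the control and 7.91%, 8.10% and 8.09% in the disruptant. The 3 control libraries lay above the 3 disruptant libraries on both measures. The median share of a cluster was 6.34%, 5.56% and 5.92% in the control and 5.37%, 5.90% and 5.35% in the disruptant, where the strains overlapped. These sums over the chosen clusters are descriptions without a test. Shares of the 1461 clusters ranked alike between libraries, with Spearman correlations of 0.929 to 0.947 within a strain and 0.878 to 0.916 between strains, across clusters that share libraries and, in part, leading clusters.

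The main comparison asked whether an upstream start gained or lost tags relative to its leading start when sirD was disrupted. The share of 253 upstream clusters changed, higher in the disruptant for 98 and lower for 155. This is 17.3% of the 1461, where 10.9% of all 4065 non-leading clusters tested against their nearest leading cluster changed (5.68% higher and 5.22% lower). Among the upstream clusters the higher calls were 6.71% and the lower calls 10.6%. The median log2 difference of the ratio of upstream to leading tags, disruptant minus control, was −0.13 for the upstream clusters and 0.06 for all pairs. A log2 value printed beside shares is likewise a difference of this ratio, which is larger than the log2 difference of the share itself. The test was edgeR's quasi-likelihood test on paired counts, adjusted over all 4065 pairs by the Benjamini-Hochberg method, with a call below 0.05. Without disruptant replicate 2 the calls were 55 higher and 105 lower, and without disruptant replicate 3 they were 61 and 102. DESeq2 called 37 higher and 69 lower on the same counts.

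Called changes were mostly large, and the test recovers small changes less often than large ones. On simulated counts with a dispersion that was set, not estimated from these data, it found 30% of 2-fold and 84% of 4-fold changes. Recovery in the real counts may differ, and a share that was not called may still have changed. Over all 1461 upstream clusters the median size of the log2 difference was 0.54, beside 0.41 over all pairs. Of the 98 higher clusters 86 changed at least 2-fold and 19 at least 4-fold in the ratio of upstream to leading tags, and of the 155 lower clusters 131 and 38 did. The median change of the called clusters was 2.97-fold for the higher and 3.09-fold for the lower. The shares of the 3 libraries of each strain did not overlap, in the direction of the call, for 91 of the 98 and 147 of the 155. This uses the same counts as the calls and is no separate evidence. Over all upstream clusters 34.4% did not overlap between strains, against 25.3% of all pairs. Of the 253 called clusters, 62 had under 15 tags in 1 strain, which is below 50% of the pooled minimum, as did 240 of all 1461, and for 14 of the 253 and 65 of the 1461 the leading cluster had under 50 tags in 1 strain. The 253 clusters lay at 192 leading clusters, so that clusters of the same leading peak share their denominator and are not independent.

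**Figure D2:**
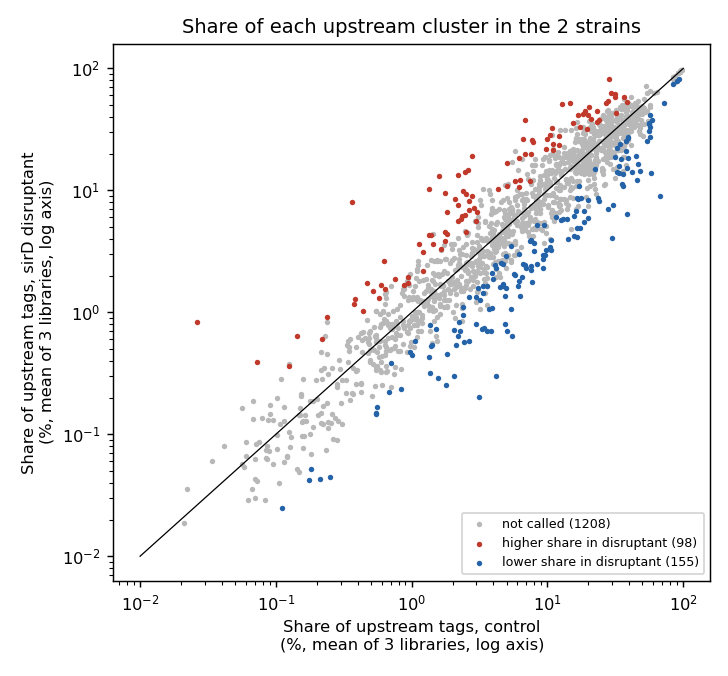
Each point is an upstream cluster, with its mean share over 3 control libraries on the x axis and over 3 disruptant libraries on the y axis (%, both log axes), and the line marks equal shares. Most of the 1461 points follow the line, with the 98 higher clusters in red above it and the 155 lower clusters in blue below it.

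Changed shares were counted by distance from the leading peak. Shares changed in 2 of 22 upstream clusters at 50 to under 100 bp (9.09%), 11 of 107 at 100 to under 200 bp (10.3%), 46 of 398 at 200 to under 500 bp (11.6%), 73 of 389 at 500 to under 1000 bp (18.8%) and 121 of 545 at 1000 to under 2000 bp (22.2%). On the downstream side the same distances gave 6.67%, 3.21%, 6.70%, 5.58% and 11.3%. From the nearest to the furthest of these upstream distances the median depth was 51, 75, 86, 74 and 76 pooled tags, lowest in the nearest class, and its part in the percentages was not tested. By depth, 13.8% of the upstream clusters were called under 100 tags, 18.8% at 100 to under 300, 27.4% at 300 to under 1000 and 27.2% at 1000 or more. The downstream side had 5.40%, 10.1%, 10.5% and 9.68% in these classes. Differences between these percentages were not tested, since neighbouring clusters share leading clusters.

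**Figure D3:**
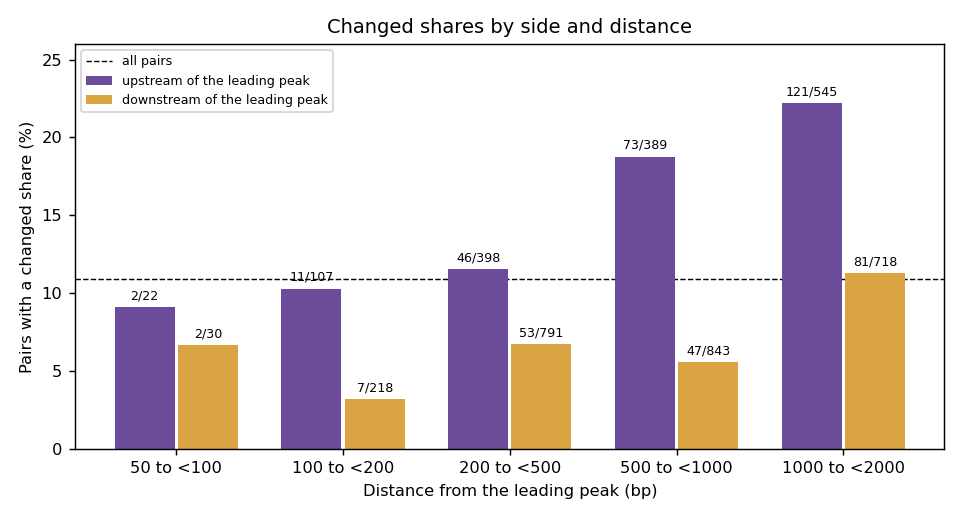
Bars give the percentage of non-leading clusters whose share against the leading cluster changed (edgeR, adjusted p below 0.05), by distance from the leading peak (bp) and by side, with called and tested numbers above each bar. The upstream side runs from 9.09% at 50 to under 100 bp to 22.2% at 1000 to under 2000 bp, and the dashed line marks the 10.9% of all 4065 pairs.

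A changed share can come from the upstream start, from the leading start or from both, and the levels of each were tested over all 4083 clusters passing a count filter. Of these, 24.5% changed in level (10.4% higher and 14.0% lower). Of the 1461 upstream clusters 916 passed the filter, and 67 of them were higher and 168 lower. All 687 leading clusters with an upstream cluster passed, with 108 higher and 133 lower. The filter can keep a cluster for the strain where it is high, so the counts over those that passed describe only these.

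The counts that follow are of upstream clusters, so a leading cluster with several of them is counted each time. Among the 98 upstream clusters with a higher share, which lay at 75 leading clusters, the leading cluster was lower in 60 and higher in 3. The upstream cluster itself rose in 36, fell in 1, did not pass the test in 34 and was below the count filter in 27. In 25 the upstream level rose and the level of the leading cluster did not pass the test. In 32 it was the reverse, with a lower leading level and an upstream level that did not pass. Among the 155 with a lower share, which lay at 120 leading clusters, the leading cluster was higher in 70 and lower in 5. The upstream cluster fell in 76, did not pass in 44 and was below the filter in 35. In 49 the upstream level fell beside a leading level that did not pass, in 31 the leading level rose beside an upstream level that did not pass, and in 22 the upstream level fell while the leading level rose. Conversely, 65 upstream clusters whose share was not called fell together with their leading clusters and 14 rose with them. These level tests use the same 6 libraries as the share test and are no separate evidence.

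Of the 10 clusters with the smallest p in each direction, 5 of the higher and 3 of the lower had under 30 tags in 1 strain and so reached the pooled minimum only with the strain where they were high. The higher ones are those at 1490041, 1745286, 1838026, 1316422 and 663144, and the lower ones those at 1235143, 1234951 and 2032208. Their values describe clusters chosen in part by that high strain.

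In a first group of the higher clusters with the smallest p, the upstream start rose beside a leading start whose level did not pass the test. The smallest p belonged to a start that was nearly absent from the control and reached the minimum of 30 pooled tags only through the disruptant, on scaffold 1 (plus strand) at 1490041 to 1490119 and 1153 bp ahead of its leading peak. It had 2, 1 and 0 control tags and 32, 21 and 29 disruptant tags, beside 3786, 3832 and 3582 leading tags in the control and 3527, 3159 and 3130 in the disruptant. Its share was high in every disruptant library and near 0 in every control library, yet it stayed below 1% of the leading start, at 0.826% ± 0.144 in the disruptant (SD, n = 3). With 3 tags over the control, the ratio of disruptant to control, relative to the leading cluster, was 31.2 (exact 95% interval 10.3 to 154, counting error only), and edgeR's adjusted p was 3.53e-08. The next leading peak on its far side was 1177 bp away.

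On the minus strand of scaffold 2, the cluster at 1745286 to 1745335, 1420 bp upstream, had 3, 2 and 6 tags in the control and 51, 41 and 41 in the disruptant. Its leading cluster had 189, 236 and 251 tags in the control and 356, 261 and 269 in the disruptant. The upstream share went from 1.58% ± 0.747 to 13.1% ± 0.532 (SD, n = 3, log2 3.17, SE 0.42, edgeR adjusted p = 6.02e-07). On the plus strand of scaffold 1, the cluster at 1316422 to 1316536 had 15, 8 and 6 tags in the control and 58, 82 and 55 in the disruptant, against 59, 75 and 64, and 42, 76 and 72 leading tags. It went from a minor start (12.8% ± 6.47) to an equal partner of the leading start (51.1% ± 7.38, SD, n = 3, log2 2.81, SE 0.41, edgeR adjusted p = 2.12e-06). The strains did not overlap in either cluster.

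In the second group the leading start fell and the upstream level did not pass the test. The scaffold 1 plus-strand cluster at 521019 to 521174, 1600 bp upstream, had 345, 364 and 360 tags in the control and 402, 471 and 451 in the disruptant. Its leading cluster at 522625 to 522727 had 1562, 1347 and 1325 tags in the control and 366, 585 and 482 in the disruptant. The leading level fell by 1.67 on the log2 scale (SE 0.16, edgeR adjusted p = 5.49e-07), and the upstream share went from 20.2% ± 1.86 to 48.4% ± 3.87 (SD, n = 3, log2 1.89, SE 0.23, edgeR adjusted p = 5.89e-08). All 5 upstream clusters of this leading peak had a higher share, with log2 differences of 1.37 to 1.89 in the ratio of upstream to leading tags.

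The scaffold 2 minus-strand cluster at 1789942 to 1790017 was of the same kind. It had 86, 81 and 64 tags in the control and 93, 84 and 89 in the disruptant, while its leading cluster went from 403, 317 and 306 to 143, 102 and 121 tags. The share rose from 18.4% ± 1.69 to 42.3% ± 2.88 (SD, n = 3, edgeR adjusted p = 9.74e-06). So was the abundant scaffold 1 minus-strand cluster at 1859631 to 1859811, with 594, 598 and 560 tags in the control and 704, 882 and 813 in the disruptant. Its leading cluster at 1857652 to 1858114 had 1854, 1348 and 1583 tags in the control and 813, 814 and 625 in the disruptant. The upstream start thereby went from 27.0% ± 3.33 to 51.6% ± 5.07 of the pair (SD, n = 3, log2 1.53, SE 0.23, edgeR adjusted p = 2.98e-06). The same leading peak had 4 higher of 5 upstream clusters, among them the cluster at 1858741 to 1859260, whose own level also rose and whose share went from 6.80% ± 1.16 to 19.7% ± 2.48 (SD, n = 3).

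In the remaining 3 of these 10, the upstream level rose and the leading level fell. They were the scaffold 1 clusters at 1838026 to 1838115 on the minus strand (6.87% ± 2.64 to 37.6% ± 10.8, SD, n = 3), at 663144 to 663218 on the plus strand (1.77% ± 0.526 to 9.59% ± 5.16, SD, n = 3) and at 704222 to 704377 on the minus strand (18.9% ± 3.03 to 45.1% ± 2.72, SD, n = 3). In all 10, the share of each disruptant library was above that of each control library, which follows largely from choosing them by p.

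The lower cluster with the smallest p was the far end of an array of 6 upstream clusters, each with a lower share. The scaffold 1 plus-strand cluster at 1234496 to 1234629, 1841 bp upstream, had 583, 522 and 361 tags in the control and 162, 245 and 188 in the disruptant. Its leading cluster at 1236349 to 1236556 had 652, 632 and 418 tags in the control and 978, 980 and 1026 in the disruptant. In the control the upstream start was nearly as strong as the leading start, at 46.3% ± 0.989, and in the disruptant it took 16.6% ± 3.04 (SD, n = 3, log2 −2.12, SE 0.23, edgeR adjusted p = 1.63e-08). Its own level fell and the leading level rose by 0.71 on the log2 scale (SE 0.15, edgeR adjusted p = 0.00140).

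For these 6 clusters the log2 differences of the ratio of upstream to leading tags ran from −3.90 to −1.99. The cluster at 1234826 to 1234917 went from 177, 122 and 92 tags to 36, 77 and 60, and from 18.5% ± 2.62 to 5.45% ± 1.87 (SD, n = 3). The small cluster at 1235143 to 1235186 went from 29, 22 and 22 tags to 1, 7 and 1, and that at 1234951 to 1234956 from 26, 12 and 16 to 0, 4 and 2. The cluster at 1235233 to 1235235 went from 17, 7 and 16 tags to 3, 8 and 6. That at 1234716 to 1234747 went from 16, 6 and 12 tags to 1, 4 and 4. Both were below the count filter for levels. Like the small clusters before them, they reached the pooled minimum only with the control, where they were high. Shares of the 6 did not overlap between strains, but all have the same rising leading cluster as denominator and are not separate changes. All 6 lay 1155 to 1841 bp from the leading peak, and the next leading peak on the far side was 3489 bp from the outermost. Whether the array starts the same gene as the leading cluster was not tested.

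**Figure D4:**
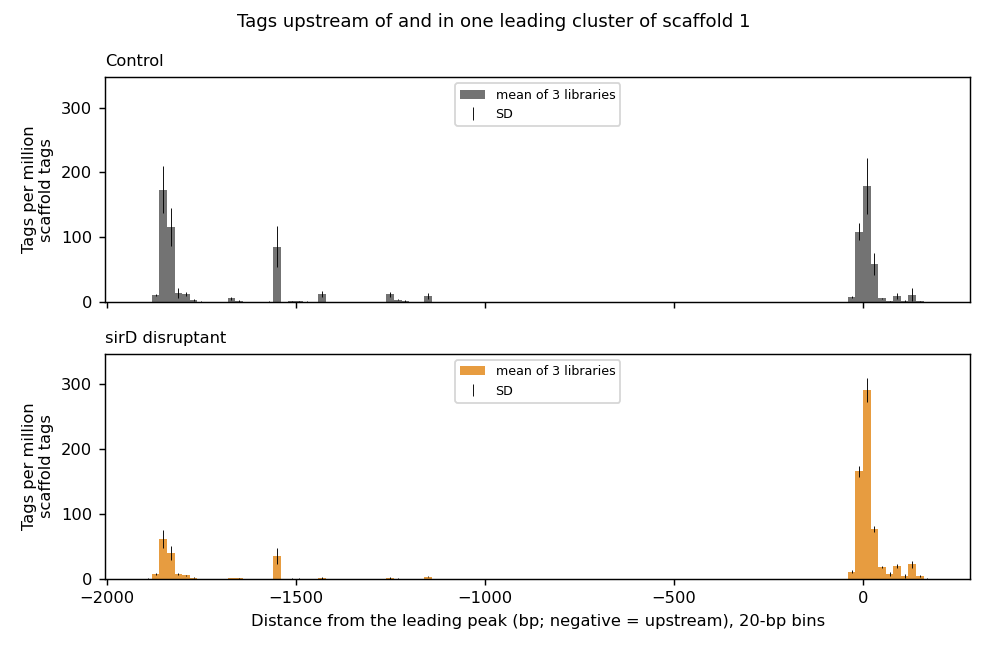
Tags in 20-bp bins, scaled to the scaffold tags of each library as the axis states (bars, mean of 3 libraries, with SD) in the leading cluster of scaffold 1 at 1236349 to 1236556 and its 6 upstream clusters, against distance from the leading peak (bp), for the control (top) and the disruptant (bottom). The group of bars furthest upstream, which took 46.3% of the tags of the pair in the control, is lower in the disruptant, while the leading bars are higher.

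Other lower clusters lay close to their leading peak. On the minus strand of scaffold 2, the cluster at 1433266 to 1433326, 276 bp upstream, had 353, 245 and 249 tags in the control and 86, 91 and 46 in the disruptant. Its leading cluster had 560, 754 and 650 tags in the control and 895, 929 and 881 in the disruptant, and its level did not pass the test. The share fell from 30.3% ± 7.42 to 7.55% ± 2.24 (SD, n = 3, log2 −2.41, SE 0.27, edgeR adjusted p = 1.63e-08). The scaffold 2 minus-strand cluster at 35952 to 36082, separated by 25 bp from its leading cluster, had 211, 224 and 213 tags in the control and 31, 65 and 92 in the disruptant, next to 709 to 980 leading tags in the control and 883 to 1036 in the disruptant. Its share was 5.95% ± 2.58 in the disruptant (SD, n = 3), and the ratio to the leading cluster was 3.99-fold lower than in the control (edgeR adjusted p = 6.02e-07). In both clusters the level of the upstream start fell, that of the leading start did not pass the test, and the shares did not overlap between strains.

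The scaffold 1 minus-strand cluster at 2032208 to 2032259 went from the major to the minor start of its pair. It had 19, 8 and 9 tags in the control and 6, 2 and 3 in the disruptant, and its leading cluster had 10, 5 and 3 in the control and 48, 29 and 29 in the disruptant. The share went from 67.3% ± 6.92 to 8.98% ± 2.35 (SD, n = 3, log2 −4.23, SE 0.63, edgeR adjusted p = 3.73e-06), at low depth. Its leading cluster reached the minimum of 100 pooled tags only through the disruptant, so that which start counts as leading was set by the strain where it was high. The last 3 of the lower 10 were the scaffold 2 plus-strand cluster at 1371618 to 1371748 (18.5% ± 3.00 to 6.77% ± 1.26, SD, n = 3) and, on the minus strand of scaffold 1, those at 631580 to 631772 (3.27% ± 0.851 to 0.724% ± 0.320, SD, n = 3) and at 843297 to 843403 (1.34% ± 0.353 to 0.434% ± 0.157, SD, n = 3). The gap to the leading cluster was only 23 bp at 1371618 and 36 bp at 843297. Joining positions within 50 bp would merge both with their leading clusters, and likewise the scaffold 2 cluster at 35952, with its gap of 25 bp. Whether these count as separate starts thus depends on the joining distance. Among all upstream clusters, 142 had a gap of 50 bp or less, and 20 of these were called. In all 10 lower clusters, the share of each disruptant library was below that of each control library. This follows largely from choosing them by p.

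**Figure D5:**
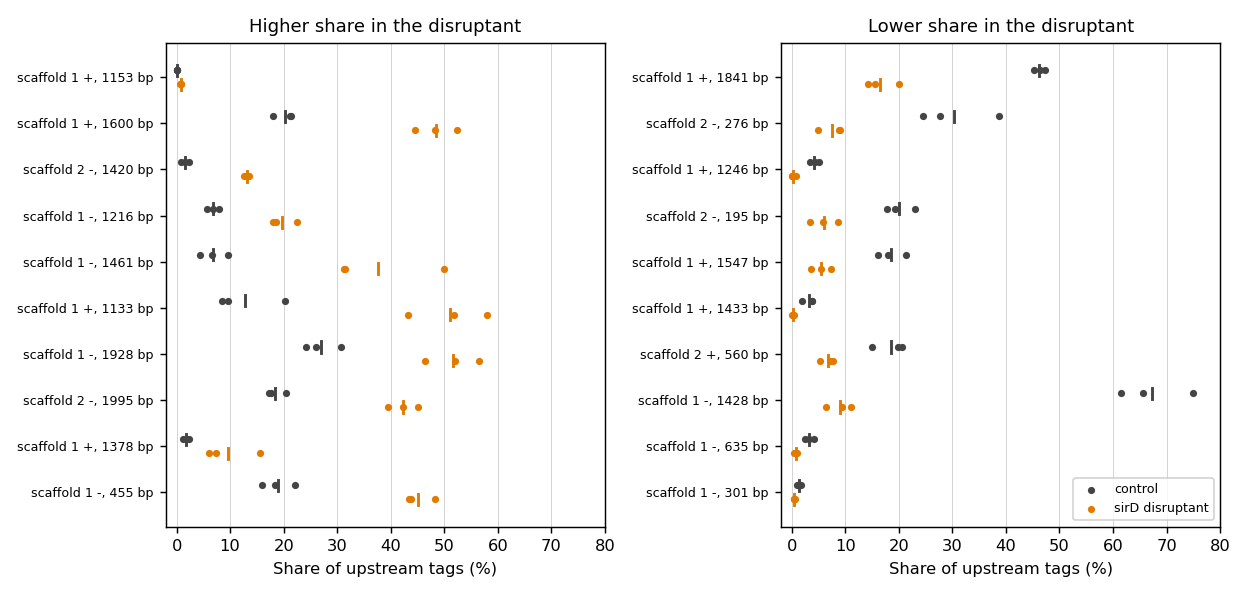
Share of upstream tags (%) in each library (points) and the mean of 3 libraries (bars) for the 10 higher (left) and 10 lower (right) upstream clusters with the smallest p, each named by scaffold, strand and distance to its leading peak. The points of the 2 strains do not overlap in any of the 20, which follows largely from choosing them by p. Some of the 20 share a leading cluster. Mean shares include 0.826% in the disruptant (top left) and 67.3% in the control for the cluster 1428 bp upstream (right).

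The 5 most abundant upstream clusters were not called. The largest, on scaffold 2 (minus strand) at 149383 to 149547, had 1803, 2985 and 2111 tags in the control and 2373, 3290 and 3179 in the disruptant, with shares of 25.1% ± 5.52 and 29.8% ± 3.71 (SD, n = 3, edgeR adjusted p = 0.348). Without control replicate 2 it was higher (edgeR adjusted p = 0.0490). The scaffold 1 minus-strand cluster at 852018 to 852310 took 21.3% ± 0.516 and 22.5% ± 0.160 (SD, n = 3), strains that did not overlap but differed by little (log2 0.10, SE 0.19, edgeR adjusted p = 0.854). Shares of 53.9% ± 3.17 and 44.9% ± 2.60 were found for the scaffold 2 minus-strand cluster at 343558 to 343783 (SD, n = 3, log2 −0.52, SE 0.21, edgeR adjusted p = 0.113), and its leading level was higher. With limma on log2 ratios its share was called lower (adjusted p = 0.0376). The other two, on scaffold 1 (minus strand) at 1456498 to 1456661 and 1547675 to 1547882, were at 38.2% ± 2.48 and 38.5% ± 1.15, and at 43.3% ± 5.86 and 37.3% ± 1.70 (SD, n = 3), and overlapped between strains.

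The 5 clusters with the highest pooled share were larger than the leading clusters to which they were assigned. The scaffold 2 plus-strand cluster at 430021 to 430550 held shares of 96.5% ± 0.565 and 97.6% ± 0.616 (control and disruptant, SD, n = 3), and the minus-strand cluster at 460497 to 461553 took 96.2% ± 0.532 and 97.1% ± 0.320 (SD, n = 3). The scaffold 1 plus-strand cluster at 1917495 to 1917682 rose in level (log2 0.66), and its leading cluster rose with it (log2 1.10), with shares of 97.2% ± 1.06 and 96.2% ± 0.596 (SD, n = 3). A pair of minus-strand clusters, at 446856 to 447229 of scaffold 1 and at 119528 to 120086 of scaffold 2, took 94.7% to 95.5% in both strains. The adjusted p of these 5 ran from 0.359 to 0.986 (edgeR).

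Arrays of several upstream starts were common. Of the 378 leading clusters with 2 or more upstream clusters, 41 had 2 or more whose share changed. All of the called ones were higher in 15 of the 41 and lower in 23. No like count was made for the downstream side. Upstream clusters of the same leading peak share its tags as denominator. A changed leading level therefore moves their shares in the same direction, and such calls are not separate changes. In 3 of the 41, chosen for this after their values were seen, shares of upstream clusters of the same leading peak changed in both directions. At the leading cluster on scaffold 2 (minus strand) at 1173381 to 1173678, the cluster 190 bp upstream went from 10.5% ± 3.15 to 28.5% ± 4.61 (SD, n = 3, edgeR adjusted p = 0.000654) and the cluster 1640 bp upstream from 7.59% ± 3.58 to 2.22% ± 2.36 (SD, n = 3, edgeR adjusted p = 0.0279). The cluster at 1640 bp had only 20, 8 and 6 tags in the control and 4, 1 and 1 in the disruptant. Its shares overlapped between strains. On scaffold 1 (minus strand) at 1045123 to 1045407 the share of the near cluster fell, 320 bp upstream, from 9.47% ± 2.41 to 5.18% ± 0.634, and that of the far cluster rose, 1400 bp upstream, from 1.75% ± 0.402 to 4.52% ± 1.08 (SD, n = 3). Here the leading level fell (log2 −0.74, SE 0.17, edgeR adjusted p = 0.0027). The level of the far cluster did not pass the test, with 11, 10 and 8 tags in the control and 12, 15 and 25 in the disruptant (edgeR adjusted p = 0.193). At 1733915 to 1735033 of the same scaffold and strand, the share of a cluster 573 bp upstream rose from 0.126% ± 0.0732 to 0.360% ± 0.0845 and that of one 1372 bp upstream fell from 8.37% ± 1.62 to 5.15% ± 0.450 (SD, n = 3). The cluster at 573 bp had 6, 4 and 2 tags in the control and 10, 18 and 14 in the disruptant. It thus reached the minimum of 30 pooled tags only with the disruptant, and its level was below the count filter.

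The leading peak with the most upstream clusters, by number and then tags, lay on the plus strand of scaffold 2 in the cluster at 1448487 to 1449095. It had 1242, 1236 and 1108 tags in the control and 1359, 1260 and 1284 in the disruptant, and 9 upstream clusters at 309 to 1909 bp. Of these 9, 1 was called, beside 17.3% of all upstream clusters and 10.9% of all 4065 pairs. The called cluster was the furthest, at 1446668 to 1446874. It had 78, 78 and 79 tags in the control and 22, 47 and 50 in the disruptant, and went from 6.17% ± 0.423 to 2.98% ± 1.20 (SD, n = 3, log2 −1.12, SE 0.28, edgeR adjusted p = 0.00589). Without disruptant replicate 1, which had the lowest count, it was no longer called (edgeR adjusted p = 0.109), nor was it by DESeq2 (adjusted p = 0.112). The other 8 took 0.255% to 4.83% in either strain, with adjusted p of 0.178 to 0.989 (edgeR). Of the 9, 4 had under 30 tags in 1 strain. The cluster at 1448182 to 1448292 had 48 tags in each control library and 79, 61 and 59 in the disruptant.

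In 20 of the called upstream clusters, picked after the values were seen, the mean share crossed 50% between strains. The mean was above 50% in the disruptant in 10 and in the control in 10. These are 1.37% of the upstream clusters, beside 0.984% of all 4065 pairs. They included the scaffold 1 minus-strand cluster at 1467081 to 1467143 (31.2% ± 7.96 to 61.3% ± 7.78, SD, n = 3, edgeR adjusted p = 0.000259) and the scaffold 2 minus-strand cluster at 1368238 to 1368408 (31.5% ± 6.75 to 57.9% ± 3.84, SD, n = 3, edgeR adjusted p = 5.38e-05). A pair of them belonged to 1 leading peak of the scaffold 2 plus strand, the cluster at 1860943 to 1861299 with 28.1% ± 5.03 and 54.4% ± 5.56 and that at 1861661 to 1862230 with 36.7% ± 7.09 and 57.8% ± 6.25 in control and disruptant (SD, n = 3). In the other direction, the share at 1037491 to 1037591 of scaffold 1 (minus strand) dropped from 56.9% ± 2.71 to 27.6% ± 3.40 (SD, n = 3, edgeR adjusted p = 0.00264). The calls are of a changed ratio, and the crossing of 50% was not tested. Some means lay close to 50%. On the plus strand of scaffold 1, disruptant means were 51.1% ± 7.38 at 1316422 and 52.1% ± 37.4 at 1328082 (SD, n = 3). Shares of the cluster at 1328082 overlapped between strains.

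An upstream cluster lies between 2 leading peaks, and its change in level was compared with both. For 592 upstream clusters with tested levels and a far-side leading peak under 5000 bp away, the median size of the difference in log2 change was 0.48 to the leading cluster downstream and 0.54 to the leading cluster upstream. The upstream neighbour was the closer in 298 of them (50.3%). It was the closer in 87 of 203 clusters (42.9%) under 500 bp from the downstream leading peak, 89 of 156 (57.1%) at 500 to under 1000 bp and 122 of 233 (52.4%) at 1000 to under 2000 bp. To which of the neighbouring transcripts an upstream start belongs was not tested.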

How the data were processed

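The authors deposited raw counts of CAGE tags per base and strand, with 1 column for each of the 6 libraries, and the sample descriptions gave the match of columns to samples. The submitters' processing notes name the tools FastQC, BWA and bedtools. The sources used here give neither their settings nor the genome build, nor how multiply mapped reads were handled. The deposited table has 1048575 rows in text order and stops inside scaffold 2, where rows are missing at 4749 to 10000, 47455 to 100011 and 474756 to 1000002; 4 upstream clusters lay within 2000 bp of these, none of them called. File positions count from 0 and 1 was added.

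Clusters, leading peaks and pairs were built as the report describes. For shares, edgeR 4.0.16 (limma 3.58.1, R 4.3.3) was fitted to 12 columns per pair, the upstream and leading counts of each library, with a term per library, which removes library size, a term for the upstream role and its interaction with strain. The SE was derived from the F statistic. The share test was tested on simulated counts, where it recovered 30% of 100 changes of 2-fold and 84% of 100 changes of 4-fold. The simulation used 1 set dispersion for all pairs and drew each pair independently, whereas real pairs can share a leading cluster. Levels were tested with edgeR after filterByExpr and TMM. DESeq2 1.42.0 was an alternative. Intervals cover counting error only.

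Named clusters are the 10 with the smallest p in each direction, the 5 with the most tags, the 5 with the highest share, the upstream clusters of the leading peak with most of them, and those at the limits of the choice. Members, lists and rules were chosen with earlier results of these data known. In level, 1 of 3 same-numbered pairs of libraries correlated above the minimum of 0.1 required of every pair, so no pairing was used.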

Additional observations from a re-analysis of the deposited data

How the results depend on the processing

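The 98 higher and 155 lower shares became 55 to 83 and 102 to 155 with 1 library left out, 37 and 69 with DESeq2, 47 and 82 at an adjusted p below 0.01, 54 and 95 among 616 clusters with 100 or more tags, and 52 and 81 with leading peaks 1000 bp apart, where the upstream range ends there too. The stricter threshold lowers the counts by construction, and of the calls of the main comparison 48 higher and 88 lower had 100 or more tags. For DESeq2, the left-out libraries and the 1000-bp separation the cause was not tested. The 67 higher levels became 42 without a count filter. Every other alternative run for shares and levels stayed within 1.5 times. Of the 253 calls, 106 (DESeq2) to 252 (replicate block) were kept, and 1 changed sign against all other clusters of its leading peak and 1 under diffSpliceDGE. Other definitions of clusters, leading peaks or pairs were run for the counts only and not for the named clusters. Of 468 combinations of 39 named clusters with alternative fits or left-out libraries, 450 kept direction and call, 2 lost the call and 2 gained it. The other 14, in 6 clusters, changed sign, none of them called in either fit. At 446856 of scaffold 1 the log2 difference was −0.12 against all other clusters of the leading peak and −0.011 with diffSpliceDGE. With 1 library left out, values ran from −0.049 to 0.10 at 1456498 of scaffold 1 and, on scaffold 2, from −0.18 to 0.15 at 119528, −0.084 to 0.11 at 1448313, −0.99 to 0.18 at 1447668 and −0.13 to 0.61 at 1447191.

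Deviations of log levels from the strain means correlated at 0.103, 0.0657 and 0.0438 in same-numbered libraries and at −0.104 to 0.0477 in other pairs, and 5 of 6 libraries correlated best with their own number. Since not every pair passed 0.1, the numbers were not taken as pairs. With a replicate block 111 shares were higher and 171 lower. Depth limits the small clusters, 845 of which had under 100 pooled tags.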
